A study of Mus musculus with 24 samples.

Results

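Gastrocnemius muscle of dystrophin-deficient mdx mice that had received sActRIIB-Fc for 7 weeks was set against that of wild-type mice, to ask which genes stay at dystrophic levels while the ligands of the activin receptor are blocked. The arrays were chosen by their titles, which name the group, and make up 9 of the 24 in the series. The treated group was 5 male mdx mice without a running wheel, injected into the peritoneum once a week with 5 mg/kg of sActRIIB-Fc. The sedentary control group within the mdx strain was 5 males injected with PBS over the same 7 weeks. The wild-type group was 4 males of the C57Bl/10ScSnJ strain, for which no injection is named. All carry the same age label of 6 to 7 weeks, which does not say whether it is the age at the start or at collection. The 10 remaining arrays came from running mdx mice given sActRIIB-Fc or PBS. They entered the shared normalisation, the choice of tested genes and probes, the shared estimate of the spread and the comparisons where they are named. Strain (dystrophin-deficient mdx or wild type), injection and sActRIIB-Fc therefore all differ between the treated and the wild-type mice. Their effects cannot be told apart in that comparison. The effect of sActRIIB-Fc alone is the difference between treated and PBS mdx mice. The labels number the samples within each group and the series text counts mice, but nothing says how cages, litters or hybridisations were shared, so p-values measure the spread between these samples.

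Dystrophin ties the actin skeleton of the muscle fibre through the dystroglycan and sarcoglycan complex to the laminin outside it. Without it, as in the mdx mouse and in Duchenne muscular dystrophy, contraction tears the fibre membrane, fibres die, macrophages clear them and satellite cells rebuild them, so that degenerating and regenerating fibres stand side by side. Myostatin and activins bind the activin receptor type IIB on muscle fibres and, through Smad2 and Smad3, restrain fibre growth. sActRIIB-Fc is the ligand-binding part of that receptor fused to an antibody Fc region, and circulates as a trap for these ligands.

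Each array is an Illumina bead array hybridised with labelled cRNA. Between 11088 and 11539 probes were detected on the sActRIIB-Fc arrays, 10938 to 11744 on the PBS arrays and 10404 to 10634 on the wild-type arrays, and the median raw intensities were 79.0 to 98.1, 79.1 to 99.0 and 72.3 to 90.6 in the same order. The number of arrays limits the precision of each value. The 2 dystrophin probes (Dmd) and the myostatin probe (Mstn) were detected on no array, so that neither the genotype nor the main ligand could be read from its own transcript. The abundant muscle transcripts that mark the tissue were at 14.22 to 14.27 log2 units on the sActRIIB-Fc arrays, 14.19 to 14.31 on the PBS arrays and 14.17 to 14.32 on the wild-type arrays, as the mean of 14 skeletal muscle markers, of which 1 rose and 1 fell relative to wild type (median 0.03, and -0.14 or -0.34 under the 2 equal-median scalings described below). Markers of hepatocytes varied between arrays: the mean of 12 was 7.22, 5.79, 5.47, 5.44 and 6.42 on the sActRIIB-Fc arrays, 6.12, 5.68, 5.46, 8.01 and 5.86 on the PBS arrays, and 8.33, 11.28, 8.15 and 5.43 on the wild-type arrays. Wild-type replicate 2 was the highest. Values that touch these markers are given with them as a covariate or without that array.

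Of 8945 genes tested, 1769 were higher (19.8%) and 1706 lower (19.1%) in sActRIIB-Fc mdx muscle than in wild type, at an adjusted p under 0.05 (limma, Benjamini-Hochberg over all genes), together 3475 genes (38.8%). Of these, 510 genes were at least 2-fold higher (5.7%) and 145 at least 2-fold lower (1.62%), so the large differences lay mostly upward. The median difference over all genes was -0.04 log2 units. For 1558 genes (17.4%) each of the 5 sActRIIB-Fc arrays lay above each of the 4 wild-type arrays, and for 1393 (15.6%) each lay below. Without wild-type replicate 2, the array rich in hepatocyte transcripts, 1534 genes were higher and 1470 lower, and with the hepatocyte level as a covariate 1595 were higher and 1643 lower. The split between directions depended on the scaling: when arrays were scaled to equal medians in place of quantiles the median of all genes moved to 0.09, with 2322 genes higher and 914 lower, and when they were scaled to equal medians of the probes detected on every array it moved to -0.11, with 1582 higher and 2297 lower.

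**Figure D1:**
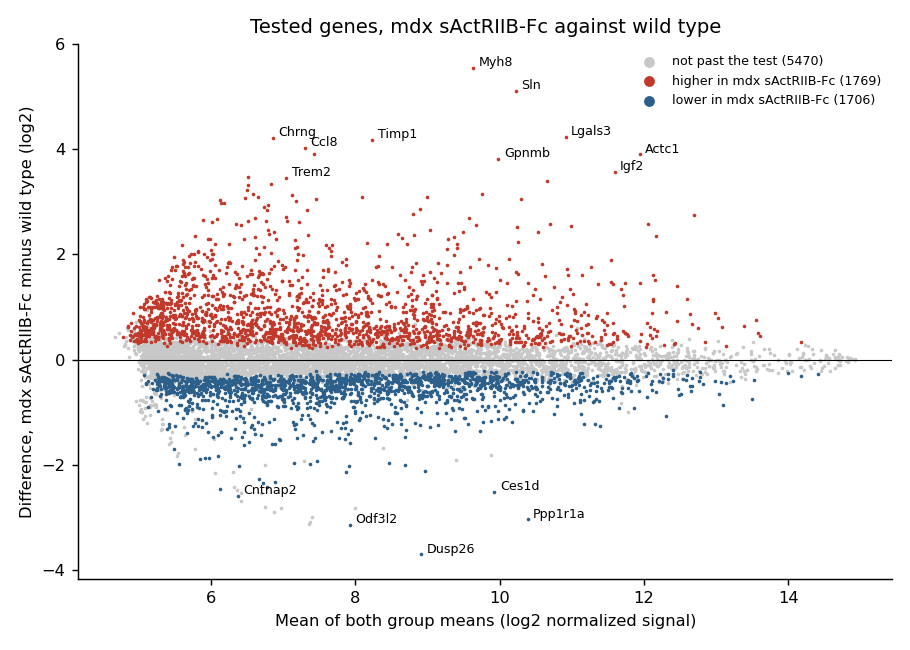
Difference between sActRIIB-Fc mdx and wild-type muscle (vertical axis, log2) against the mean of the 2 group means (horizontal axis, log2 normalised signal), 1 point for each of 8945 genes. Red points are the 1769 genes higher and blue points the 1706 genes lower in sActRIIB-Fc mdx, grey points did not pass the test, and the largest differences lie on the upper side.

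Genes of developing and regenerating fibres were far above wild type. Of 12 tested members of that list 11 rose and none fell, against 19.8% higher over all genes. The median difference was 2.24 log2 units against -0.04 over all genes. Of the 12, 2 (Chrng and Mymk) were detected on no wild-type array and entered the test only through mdx arrays. The member that did not pass was Myf6, a myogenic factor of mature fibres, at 0.16. Of the 20 genes listed, 8 were not tested because they had no named probe or were detected on fewer than 4 arrays.

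Promoter sequences are shown for the 3 members furthest above wild type that have an entry, since these genes moved together. Each is the 250 bases before the RefSeq gene start in GRCm38.p6, read 5′ to 3′ on the strand of the gene, with the E-box CAGCTG, the core letters bound by myogenic factors, in capitals.
Myh8, chr11:67276874-67277123, plus strand: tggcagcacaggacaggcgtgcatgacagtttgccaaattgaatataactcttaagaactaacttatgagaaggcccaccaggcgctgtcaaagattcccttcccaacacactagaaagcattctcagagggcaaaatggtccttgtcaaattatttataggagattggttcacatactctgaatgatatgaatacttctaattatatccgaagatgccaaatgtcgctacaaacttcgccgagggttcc
Chrng, chr1:87205561-87205810, plus strand: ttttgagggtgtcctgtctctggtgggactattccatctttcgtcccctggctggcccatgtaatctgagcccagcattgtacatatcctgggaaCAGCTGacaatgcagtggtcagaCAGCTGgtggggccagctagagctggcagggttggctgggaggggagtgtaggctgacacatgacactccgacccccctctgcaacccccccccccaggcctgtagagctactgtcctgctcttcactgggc
Actc1, chr2:114052876-114053125, minus strand: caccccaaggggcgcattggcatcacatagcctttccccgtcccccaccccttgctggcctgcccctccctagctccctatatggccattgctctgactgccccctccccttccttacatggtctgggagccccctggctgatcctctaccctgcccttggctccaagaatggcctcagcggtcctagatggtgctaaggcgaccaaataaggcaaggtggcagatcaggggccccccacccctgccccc
CAGCTG reads the same on both strands. It occurs at 2 places in the Chrng window and at 0 in the windows of Myh8 and Actc1. Of the 12 tested members 8 have an entry in the RefSeq table, with 11 start sites in all, and 2 of those 11 windows (18.2%) hold the letters, against 4271 of 32851 windows of the same length (13.0%) over all genes. The match describes letters in these windows and nothing about binding.

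Myh8 encodes the perinatal myosin heavy chain, which fibres use before the adult isoforms replace it. Its log2 signal was 11.71, 13.04, 12.58, 12.44 and 12.24 on the sActRIIB-Fc arrays, 13.31, 12.98, 12.17, 12.06 and 12.48 on the PBS arrays, and 6.81, 6.75, 6.57 and 7.33 on the wild-type arrays. All mdx arrays were far above all wild-type arrays, and the sActRIIB-Fc and PBS arrays overlapped. The difference from wild type was 5.54 ± 0.32 (SE, adjusted p = 7.2e-12), 46.5-fold, the largest of any gene. That from PBS was -0.20 with a 95% confidence interval of -0.82 to 0.43.

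Chrng encodes the gamma subunit of the fetal acetylcholine receptor. Its signal was 8.60, 8.88, 9.35, 9.74 and 8.28 on the sActRIIB-Fc arrays, 9.21, 9.24, 8.98, 8.52 and 9.37 on the PBS arrays, and 4.70, 4.63, 4.68 and 5.01 on the wild-type arrays, on none of which it was detected. It was therefore at least 10.8-fold higher in sActRIIB-Fc mdx than in wild type (adjusted p = 8.6e-09), where the bound sets the mean of the brighter group against the lowest signal detected on each wild-type array, or the gene's own signal where that is higher. The difference from PBS was -0.09 ± 0.35.

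Actc1 encodes cardiac actin, the main sarcomeric actin of fetal muscle. The sActRIIB-Fc arrays read 13.80, 13.93, 13.73, 13.86 and 14.13, the PBS arrays 14.35, 13.62, 13.98, 13.91 and 13.80, and the wild-type arrays 10.10, 9.61, 9.86 and 10.39. The treated arrays lay above every wild-type array and among the PBS arrays, with a difference of 3.90 ± 0.17 from wild type (adjusted p = 9.9e-14, 14.9-fold) and -0.04 from PBS (interval -0.38 to 0.29). Igf2, a growth factor made in fetal and regenerating muscle, followed the same order, at 13.00, 13.55, 13.32, 13.67 and 13.34 with sActRIIB-Fc, 13.79, 13.60, 13.15, 12.95 and 13.42 with PBS, and 9.68, 9.86, 9.77 and 9.95 in wild type. It rose 11.8-fold over wild type (3.56 ± 0.21, adjusted p = 8.2e-12), and its difference from PBS was -0.01.

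**Figure D2:**
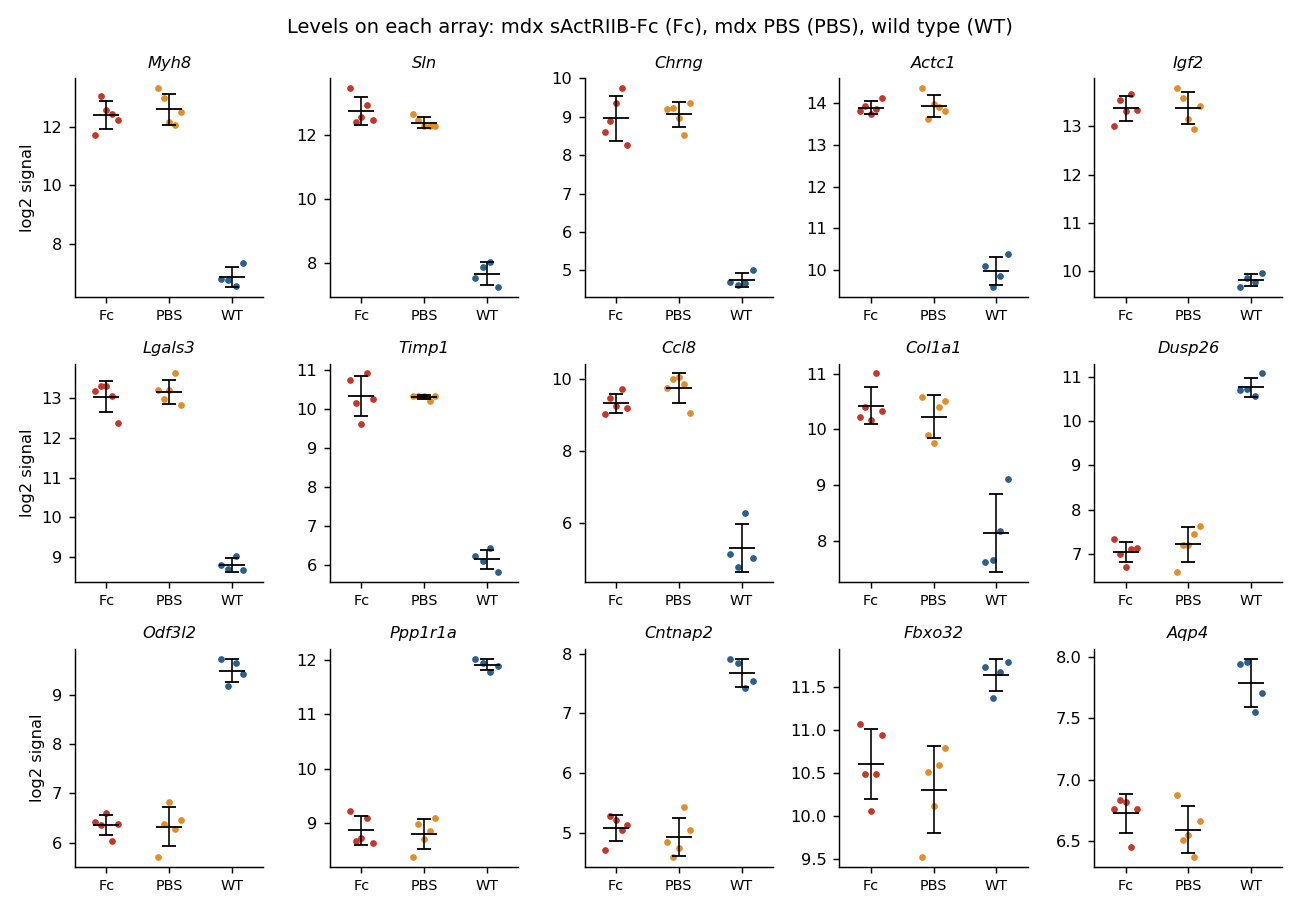
Log2 normalised signal of 15 genes on each array (points) of sActRIIB-Fc mdx (Fc, 5), PBS mdx (PBS, 5) and wild type (WT, 4), with the mean and SD of each group as bar and whiskers. For Myh8, Sln, Chrng, Actc1, Igf2, Lgals3, Timp1, Ccl8 and Col1a1 the Fc points lie above the wild-type points, for Dusp26, Odf3l2, Ppp1r1a, Cntnap2, Fbxo32 and Aqp4 they lie below, and in each panel they overlap the PBS points.

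Genes of strain and calcium handling in dystrophin-less fibres rose as well. Of 16 tested members 9 rose and none fell (median 0.63, or 0.59 with genes undetected in wild type at their bound). Sln encodes sarcolipin, a small inhibitor of the calcium pump of the sarcoplasmic reticulum. It read 13.47, 12.40, 12.59, 12.94 and 12.48 with sActRIIB-Fc, 12.66, 12.47, 12.30, 12.28 and 12.31 with PBS, and 7.51, 7.86, 8.03 and 7.26 in wild type. The treated arrays were all above wild type, 34.6-fold on average (5.11 ± 0.26, adjusted p = 6.4e-13), and the difference from PBS was 0.38 with an interval of -0.13 to 0.89. Ankrd1, a stretch-responsive protein of the sarcomere, averaged 11.34 ± 0.19 in sActRIIB-Fc mdx and 8.18 ± 0.13 in wild type (SD, n = 5 and 4; 3.16 ± 0.16, adjusted p = 4e-13), and the membrane repair gene Anxa2 rose by 1.45 ± 0.19 (adjusted p = 1.7e-06).

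In the dystrophin complex itself 3 of 11 tested members rose, 1 fell and 7 did not pass (median 0.23). The share that passed was near the 38.8% over all genes. The laminin subunit Lama2 rose by 0.97 ± 0.13 (adjusted p = 2.4e-06) and dystrobrevin alpha, Dtna, by 0.45 ± 0.10 (0.0016, lost at 0.080 under scaling to equal medians of detected probes), while dystrobrevin beta, Dtnb, fell by 0.59 (adjusted p = 0.00025). The dystrophin homologue utrophin, Utrn, was at -0.37 ± 0.17 and did not pass (adjusted p = 0.085). Among genes of the neuromuscular junction 4 of the 10 tested were higher and none lower (median 0.29). The share of these 10 that passed was again near the 38.8% over all genes, of which 19.8% were higher. The receptor subunit Chrnb1 was at 1.58 ± 0.12 (adjusted p = 1.1e-09) and acetylcholinesterase, Ache, at 0.82 ± 0.18 (0.00079).

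The macrophage list rose throughout. All 22 tested members of 29 were higher, 21 of them with no overlap between groups, and the median was 2.67 (2.58 with undetected genes at their bound), against -0.04 and 19.8% higher over all genes. A gene silent in wild type enters the test only through the mdx arrays, so the count describes the detected markers. In whole muscle, more macrophages and more RNA per macrophage cannot be told apart, which holds for every cell type below. The mean of the list per array was 8.51 to 9.11 with sActRIIB-Fc, 8.49 to 9.18 with PBS and 6.20 to 6.67 in wild type.

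Lgals3 encodes galectin-3, a lectin of macrophages that take up fibre debris. Its signal was 13.17, 13.30, 13.29, 13.04 and 12.37 on the sActRIIB-Fc arrays, 13.20, 12.97, 13.19, 13.61 and 12.82 on the PBS arrays, and 8.80, 8.69, 9.04 and 8.67 on the wild-type arrays. Replicate 5 of the sActRIIB-Fc arrays was the lowest of its group and still far above wild type. The difference was 4.23 ± 0.35 (adjusted p = 3.5e-09, 18.8-fold) and -0.13 from PBS. Trem2, a lipid receptor of such macrophages, read 8.78, 9.15, 9.23, 8.69 and 8.02 with sActRIIB-Fc, 8.80, 8.55, 8.98, 9.24 and 8.29 with PBS, and 5.49, 5.49, 4.97 and 5.33 in wild type, where it was detected on no array. It was at least 9.45-fold higher than in wild type (adjusted p = 9.8e-07) and at 0.00 against PBS. Gpnmb, a glycoprotein of such cells, rose by 3.82 ± 0.37 (adjusted p = 2.6e-08). Ms4a7, detected on 1 wild-type array, rose by 3.91 ± 0.40 (7e-08), or by 2.32 as the mean of its probes.

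Antigen presentation, chemokines and phagocytic compartments rose with them. In the MHC class II list 7 of 8 tested members rose (median 2.03). Cd74, the invariant chain that guides class II molecules, read 11.72, 12.19, 11.83, 12.12 and 12.07 with sActRIIB-Fc, 12.31, 11.85, 12.03, 12.23 and 11.92 with PBS, and 9.33, 8.85, 9.85 and 9.57 in wild type (2.59 ± 0.16, adjusted p = 1.3e-11). The treated arrays lay above all wild-type arrays and overlapped the PBS arrays. Among 17 chemokines and receptors 12 rose and none fell (median 1.37, or 1.00 with bounds). Of the 17, 7 were detected on no wild-type array and entered the test only through mdx arrays. The monocyte attractant Ccl8 was at 9.02, 9.46, 9.24, 9.71 and 9.19 with sActRIIB-Fc, 9.76, 10.00, 10.05, 9.85 and 9.04 with PBS, and 5.13, 4.78, 6.26 and 5.00 in wild type, where 1 array detected it. The difference from wild type was 4.03 ± 0.44 (adjusted p = 1.5e-07), and from PBS -0.42 ± 0.41. In the lysosome list 12 of 15 rose (median 0.84), led by the protease legumain, Lgmn (2.24 ± 0.24), and cathepsin K, Ctsk (2.20 ± 0.22). Of 7 complement genes 6 rose (median 0.70), and of 14 interferon-response genes 8 rose (median 0.58, or 0.43 with bounds), Oasl2 most (1.77 ± 0.23, adjusted p = 2.3e-06).

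Markers of other blood cells were fewer. The 6 tested mast cell genes were all higher (median 1.06, or 0.98 with bounds), with the mast cell protease Cpa3 at 7.52 ± 0.22 in sActRIIB-Fc mdx, 7.17 ± 0.14 in PBS mdx and 6.27 ± 0.23 in wild type (SD, n = 5, 5 and 4). Of 3 tested neutrophil genes 2 rose, the resistin-like gene Retnlg at least 4.33-fold and the calcium-binding S100a8 at least 2.17-fold. Neither was detected in wild type, so both entered the test only through mdx arrays, which nearly fixes their direction. The 1 tested gene of T and B cells and the 2 of erythroid cells did not pass.

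The matrix followed the same direction. Of 24 tested extracellular matrix genes 19 rose and none fell (median 1.34), and the mean of the list was 9.66 to 9.96 with sActRIIB-Fc, 9.50 to 9.94 with PBS and 8.30 to 8.68 in wild type. Col1a1, the main chain of type I collagen, read 10.22, 10.41, 10.18, 11.01 and 10.34 with sActRIIB-Fc, 10.59, 9.89, 9.75, 10.41 and 10.52 with PBS, and 7.61, 7.65, 8.17 and 9.11 in wild type. Wild-type replicate 4 was the highest of its group and still below every treated array. The difference was 2.30 ± 0.28 (adjusted p = 8.5e-07). The fibrillar collagens Col3a1 (2.18 ± 0.27) and Col5a1 (2.09 ± 0.14) rose by similar amounts.

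Among matrix proteases and their inhibitors 10 of 15 rose and 2 fell (median 1.02). Of the 15, 5 were detected on no wild-type array and entered the test only through mdx arrays. Timp1, a metalloproteinase inhibitor raised in injured tissue, read 10.73, 10.14, 9.61, 10.90 and 10.25 with sActRIIB-Fc, 10.33, 10.33, 10.32, 10.21 and 10.34 with PBS, and 6.22, 6.10, 6.43 and 5.83 in wild type. The treated arrays spread more widely than the PBS arrays around the same level, 18.1-fold above wild type (4.18 ± 0.30, adjusted p = 2.6e-10). The stromelysin Mmp3 and the macrophage elastase Mmp12, both undetected in wild type, were at least 6.33-fold and at least 4.26-fold higher. The 2 members that fell were the related inhibitors Timp3 (-0.50) and Timp4 (-1.47). In the list of fibroblasts and progenitors 9 of 10 rose (median 0.77), among them the follistatin-like gene Fstl1 (1.47 ± 0.18, adjusted p = 9.1e-07). Cell cycle genes rose in 10 of 16 cases (median 1.02, or 0.50 with bounds), the inhibitor Cdkn1a by 1.66 ± 0.18 and the mitotic gene Cdc20 at least 2.01-fold. Of the 16, 8 were detected on no wild-type array and entered the test only through mdx arrays, so this count describes the detected members. The mitotic kinase Aurka, named after its value was seen as the only member that fell, was at -1.31 (adjusted p = 7.9e-07).

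**Figure D3:**
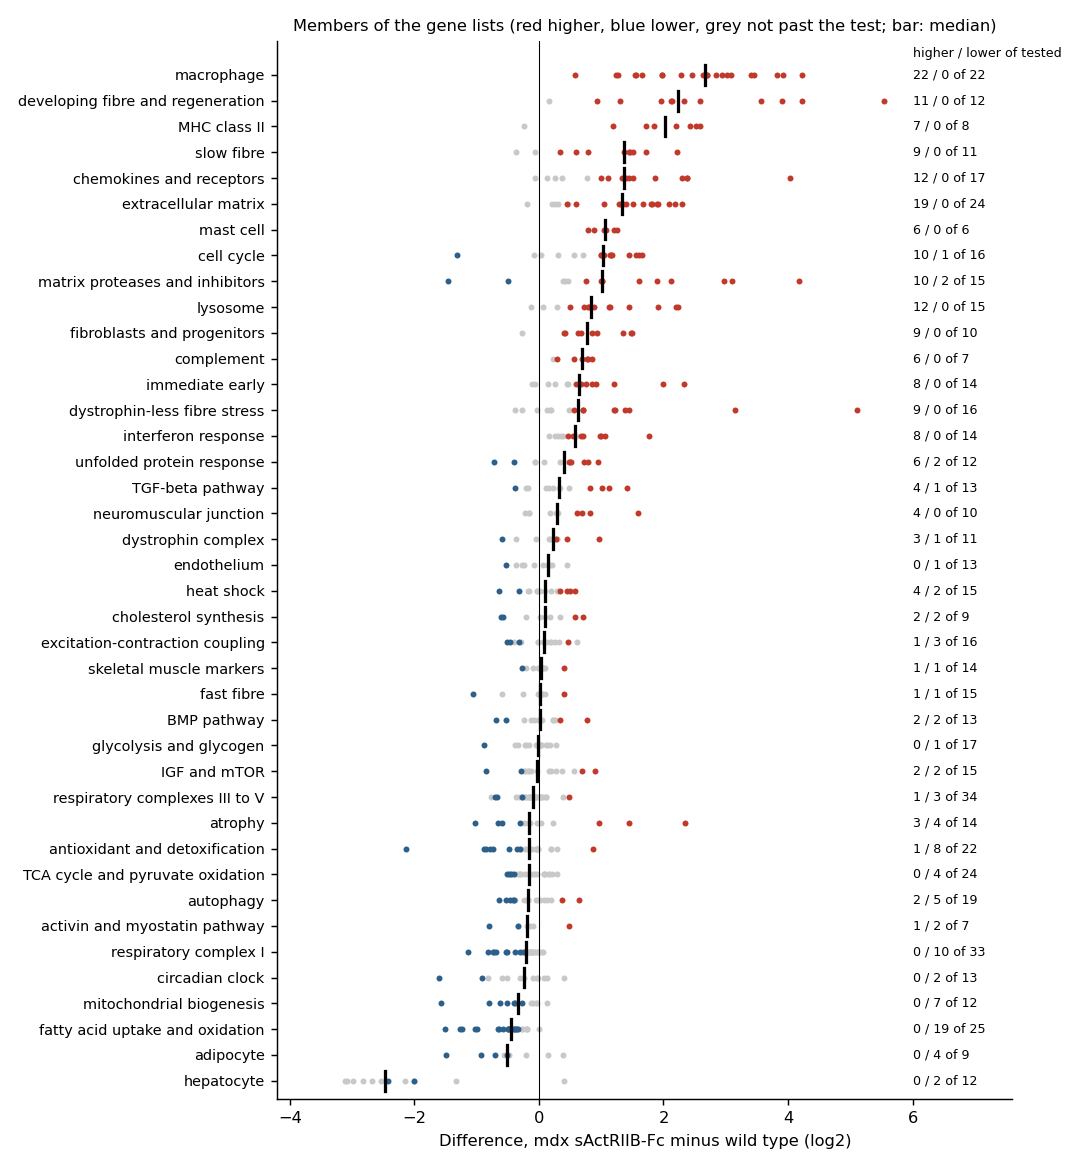
Difference between sActRIIB-Fc mdx and wild type (horizontal axis, log2) for each tested member (points) of the gene lists (rows), with the median as a bar and the numbers higher and lower of those tested at the right. The macrophage, developing fibre and MHC class II lists lie furthest to the right and the fatty acid list, with 19 of 25 lower, lies to the left.

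The activin and myostatin list covers the pathway that sActRIIB-Fc acts on. Of 17 genes 7 were tested, of which 1 rose and 2 fell (median -0.19), near the share of all genes that passed in either direction (38.8%). Acvr2b, the receptor whose ligand-binding part the drug carries, read 10.17, 9.62, 9.97, 10.28 and 9.90 with sActRIIB-Fc, 9.35, 10.10, 9.89, 9.82 and 10.30 with PBS, and 9.79, 9.88, 10.02 and 10.61 in wild type, and all 3 groups overlapped (-0.09 ± 0.27 from wild type, adjusted p = 0.83). The activin subunit Inhba was at -0.34 ± 0.18 (adjusted p = 0.14). Wfikkn2, a secreted protein that binds myostatin, read 5.39, 5.67, 5.07, 5.00 and 5.36 with sActRIIB-Fc, 5.24, 5.75, 5.15, 5.37 and 5.52 with PBS, and 6.57, 6.12, 5.56 and 6.15 in wild type. It fell by 0.80 relative to wild type (adjusted p = 0.00079), although the lowest wild-type array lay below the highest treated one. The activin antagonist follistatin, Fst, rose by 0.48 ± 0.18 (adjusted p = 0.043) and the signal carrier Smad3 fell by 0.33 (0.048), but both calls were lost in several runs that left out 1 array, up to an adjusted p of 0.23 for Fst and 0.16 for Smad3, each without wild-type replicate 4. Both were also lost with no detection filter (0.076 and 0.067) and with only the compared arrays (0.057 and 0.067). Fst was lost without background correction (0.067) and in the authors' log2 values (0.065), and Smad3 under scaling to equal medians (0.19).

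In the TGF-beta list 4 of 13 rose and 1 fell (median 0.33), near the 38.8% of all genes that passed in either direction. Tgfb1, the ligand made by macrophages and fibroblasts, read 7.24, 7.22, 7.39, 7.44 and 7.22 with sActRIIB-Fc, 7.13, 7.49, 7.22, 7.44 and 7.85 with PBS, and 5.66, 5.40, 6.22 and 6.27 in wild type. All treated arrays lay above all wild-type arrays (1.41 ± 0.26, adjusted p = 0.00017). The induced matrix protein Tgfbi rose by 1.12 ± 0.14 and the receptor Tgfbr2 by 1.01 ± 0.12. In the BMP list 2 of 13 rose and 2 fell (median 0.01), and in the IGF and mTOR list 2 of 15 rose and 2 fell (median -0.04, and 0.09 under scaling to equal medians). Both lists passed less often than all genes (38.8%). The binding proteins Igfbp7 (0.90 ± 0.11) and Igfbp4 (0.70 ± 0.12) rose and the insulin receptor substrate Irs2 fell by 0.84 (adjusted p = 0.0077), while Igf1 itself was at 0.56 ± 0.28 and did not pass (adjusted p = 0.11).

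The ubiquitin ligases of muscle atrophy were lower than in wild type. Fbxo32, also called atrogin-1, read 11.07, 10.49, 10.05, 10.49 and 10.95 with sActRIIB-Fc, 9.52, 10.51, 10.11, 10.59 and 10.79 with PBS, and 11.73, 11.37, 11.68 and 11.79 in wild type. Each treated array was below each wild-type array (-1.03 ± 0.22, adjusted p = 0.00078). Trim63, or MuRF1, read 10.10, 9.68, 9.62, 9.53 and 9.89 with sActRIIB-Fc, 9.29, 9.94, 9.56, 9.60 and 10.01 with PBS, and 10.68, 10.35, 10.26 and 10.41 in wild type (-0.66 ± 0.17, adjusted p = 0.0035). The treated arrays again lay below all wild-type arrays and among the PBS arrays. Over the 14 tested atrophy genes 3 rose and 4 fell (median -0.16, and 0.10 under scaling to equal medians), the metal-binding metallothioneins Mt1 (2.35 ± 0.27) and Mt2 (1.44 ± 0.31) being among those that rose. In the autophagy list 2 of 19 rose and 5 fell (median -0.18), with the lysosomal regulator Tfeb at -0.65 ± 0.15. For the atrophy and autophagy lists the shares over all genes to set beside these counts were 19.8% higher and 19.1% lower.

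Genes of fatty acid use were lower. In the list of fatty acid uptake and oxidation 19 of 25 fell, none rose (median -0.44), and the mean of the list was 9.77 to 9.91 with sActRIIB-Fc, 9.66 to 9.91 with PBS and 10.38 to 10.43 in wild type, with no overlap with wild type. Ucp3, an uncoupling protein of muscle mitochondria, read 6.75, 5.95, 5.65, 6.88 and 5.67 with sActRIIB-Fc, 5.43, 5.73, 6.29, 6.58 and 5.69 with PBS, and 7.13, 7.87, 7.68 and 8.10 in wild type (-1.52 ± 0.33, adjusted p = 0.00085). Acot1, which releases fatty acids from coenzyme A, read 6.36, 5.86, 6.30, 6.33 and 5.59 with sActRIIB-Fc, 6.04, 5.84, 6.60, 6.13 and 6.04 with PBS, and 7.48, 7.53, 7.16 and 7.10 in wild type (-1.23 ± 0.18, adjusted p = 6.8e-06). In both genes every treated array lay below every wild-type array and overlapped the PBS arrays. Pdk4, the kinase that blocks pyruvate oxidation, averaged 10.76 ± 0.93 with sActRIIB-Fc, 9.95 ± 0.68 with PBS and 12.03 ± 0.34 in wild type (SD, n = 5, 5 and 4). Its call against wild type (adjusted p = 0.029) was lost without any of 5 single arrays, wild-type replicates 1 and 4 and sActRIIB-Fc replicates 2, 3 and 5, with an adjusted p up to 0.079.

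Mitochondrial genes moved less, and their counts depended on the scaling. Of 12 regulators of mitochondrial biogenesis 7 fell and none rose (median -0.33). The nuclear receptor Esrrb read 5.78, 5.55, 5.69, 5.72 and 5.99 with sActRIIB-Fc, 5.27, 5.97, 6.10, 5.61 and 6.27 with PBS, and 7.20, 7.24, 7.33 and 7.50 in wild type. The groups did not overlap with wild type (-1.57 ± 0.15, adjusted p = 2.5e-08). The coactivator Ppargc1a was at -0.41 (adjusted p = 0.037), a call lost under scaling to equal medians (0.35), with the hepatocyte covariate (0.14), with no detection filter (0.060) and in 5 runs that left out 1 array, wild-type replicate 1 (0.16) or 3 or sActRIIB-Fc replicate 1, 3 or 4. In the list of respiratory complex I 10 of 33 subunits fell and none rose (median -0.21), and 20 or 31 fell under the 2 equal-median scalings. In respiratory complexes III to V 3 of 34 subunits fell and 1 rose (median -0.10), with 11 or 25 falling under those scalings, and of 24 genes of the TCA cycle 4 fell (median -0.16). With quantile normalisation both lists fell less often than all genes (19.1%). Cytochrome c, Cycs, fell by 0.67 (adjusted p = 7.4e-06) and the complex I subunit Ndufb11 by 0.82 (0.00015). In glycolysis 1 of 17 fell, the muscle bisphosphatase Fbp2 (-0.88 ± 0.14), and none rose. Of 22 antioxidant genes 8 fell and 1 rose (median -0.16), the glutathione peroxidase Gpx1 by 0.87 ± 0.14. The share of the 22 that passed in either direction was near the 38.8% over all genes, of which 19.1% were lower.

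Fibre type genes split. Of 11 slow fibre genes 9 rose and none fell (median 1.37), and 6 to 9 rose when single arrays were left out. The slow troponin Tnni1 read 8.51, 9.40, 9.80, 9.45 and 9.21 with sActRIIB-Fc, 9.33, 9.04, 8.96, 9.21 and 8.92 with PBS, and 6.59, 7.13, 7.33 and 7.21 in wild type (2.21 ± 0.30, adjusted p = 3.1e-06). Every treated array lay above wild type. The slow myosin Myh7 read 6.72, 6.43, 7.57, 7.17 and 7.26 with sActRIIB-Fc, 5.68, 6.59, 6.32, 6.68 and 6.31 with PBS, and 5.20, 4.93, 5.70 and 6.80 in wild type. Wild-type replicate 4 lay above 2 of the treated arrays, and the difference (1.37 ± 0.45, adjusted p = 0.019) no longer passed when wild-type replicate 1 (0.059) or replicate 2 (0.076) was left out, or with the hepatocyte level as a covariate (0.12). Of 15 fast fibre genes 1 rose and 1 fell (median 0.02, and -0.15 or -0.35 under the equal-median scalings), with the fast myosin Myh4 at -0.01 ± 0.18. The member that rose was the fast myosin Myh1 (0.41 ± 0.15, adjusted p = 0.036), whose groups overlapped. Its call was lost under both equal-median scalings (0.115 and 0.617), with the hepatocyte covariate (0.152) and in several runs that left out 1 array. The member that fell was Aqp4, which encodes the main aquaporin of fast fibres, at 6.76, 6.83, 6.82, 6.45 and 6.76 with sActRIIB-Fc, 6.87, 6.51, 6.55, 6.37 and 6.66 with PBS, and 7.94, 7.96, 7.55 and 7.70 in wild type. All treated arrays were below wild type (-1.06 ± 0.13, adjusted p = 8.1e-07).

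**Figure D4:**
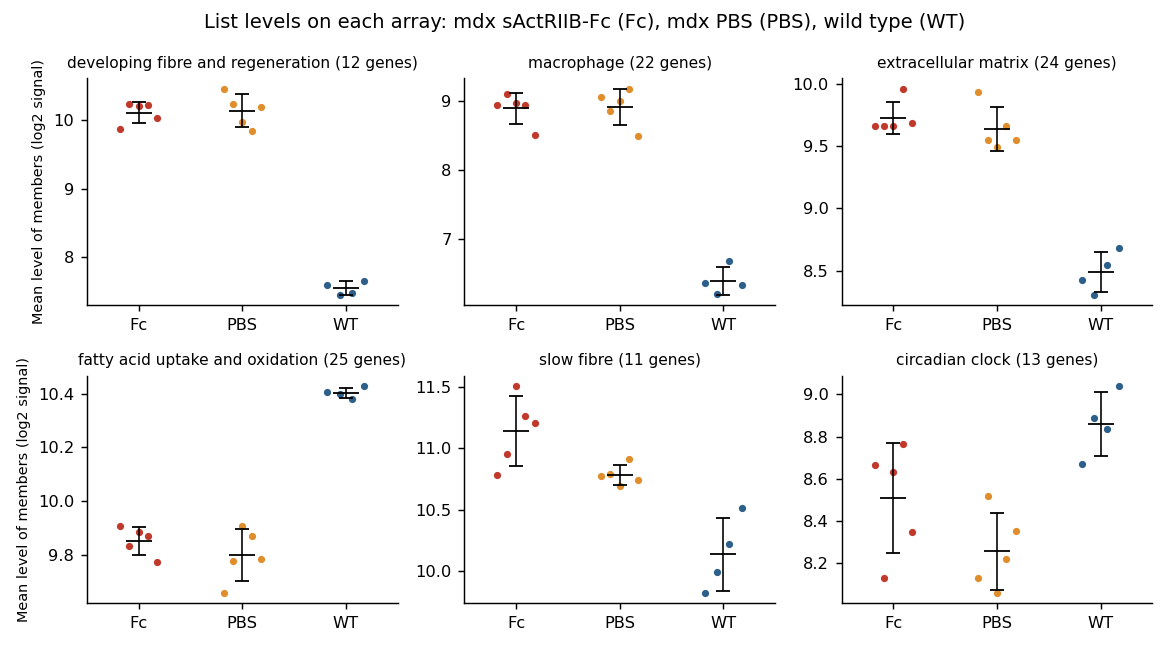
Mean log2 signal over the tested members of 6 gene lists on each array (points) of sActRIIB-Fc mdx (Fc, 5), PBS mdx (PBS, 5) and wild type (WT, 4), with the mean and SD of each group as bar and whiskers. In the fatty acid list the Fc points (9.77 to 9.91) lie below the wild-type points (10.38 to 10.43), and in the developing fibre, macrophage and matrix lists they lie above them.

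The largest falls were in single genes. Dusp26, a phosphatase, read 7.33, 7.00, 6.72, 7.11 and 7.14 with sActRIIB-Fc, 6.60, 7.19, 7.22, 7.45 and 7.64 with PBS, and 10.71, 10.71, 10.57 and 11.07 in wild type. The mdx groups overlapped each other far below wild type, with a difference of -3.71 ± 0.18 (adjusted p = 4e-13) and a level 13.1-fold lower. Ppp1r1a, an inhibitor of protein phosphatase 1, read 9.21, 8.67, 8.73, 9.10 and 8.64 with sActRIIB-Fc, 8.38, 8.98, 8.70, 8.85 and 9.10 with PBS, and 12.03, 11.95, 11.78 and 11.89 in wild type (-3.04 ± 0.14, adjusted p = 1.9e-13). Odf3l2 read 6.42, 6.35, 6.61, 6.03 and 6.38 with sActRIIB-Fc, 5.71, 6.37, 6.82, 6.27 and 6.46 with PBS, and 9.73, 9.19, 9.65 and 9.44 in wild type (-3.14 ± 0.29, adjusted p = 1.7e-08). Both lay below wild type on every treated array.

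Cntnap2, a neurexin-like protein of axon membranes, read 4.71, 5.28, 5.22, 5.05 and 5.14 with sActRIIB-Fc, 4.85, 4.60, 4.76, 5.43 and 5.04 with PBS, and 7.92, 7.84, 7.42 and 7.54 in wild type. It was detected on all wild-type arrays and on no sActRIIB-Fc array, at least 5.17-fold lower (adjusted p = 2.7e-10). The potassium channel subunit Kcnab1 (-2.27 ± 0.16), the growth factor carrier Fgfbp1 (-2.32 ± 0.20) and the carboxylesterase Ces1d (-2.51 ± 0.27) fell too. The liver genes Apoc4 and Gnmt also ranked among the 10 largest falls, but their groups overlapped. Gnmt read 6.52, 5.34, 5.21, 5.26 and 5.52 with sActRIIB-Fc, 5.11, 5.34, 5.00, 7.12 and 5.22 with PBS, and 7.79, 10.89, 7.65 and 5.63 in wild type, highest on the array with the most hepatocyte transcripts. Its difference of -2.42 ± 0.88 (adjusted p = 0.031) became -1.45 without wild-type replicate 2 (adjusted p = 0.18) and -0.53 with the hepatocyte level as a covariate (0.0083). Apoc4, detected on 3 wild-type arrays and on no sActRIIB-Fc array, was at least 4.15-fold lower (adjusted p = 0.039); its fitted difference of -2.46 became -1.46 without wild-type replicate 2 (0.21) and -0.46 with the covariate (0.065). In the hepatocyte list 2 of 12 fell (median -2.48), against 0 without wild-type replicate 2 (median -1.46), 11 without replicate 4 (-3.37) and 1 with the covariate (-0.05). The covariate is the mean of these same 12 genes, so a median near 0 with it was fixed in advance. Any member of the list is thereby adjusted partly for itself. In the adipocyte list 4 of 9 fell (median -0.51), the hormone leptin, Lep, by 1.50 (adjusted p = 0.00025). The part of other tissue in these values was not tested.

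Counted by detection, 244 genes were detected on all 5 sActRIIB-Fc arrays and on no wild-type array, and 227 of them rose, a direction that this choice of genes nearly fixes. Of the 244, 197 were detected on all 5 PBS arrays too. Kcne1l, a potassium channel regulator, was 1 of them, at 8.34, 8.03, 8.01, 8.48 and 8.34 with sActRIIB-Fc, 8.29, 6.91, 7.94, 8.09 and 8.14 with PBS, and 4.68, 4.77, 4.81 and 4.84 in wild type, at least 6.53-fold higher. The reverse pattern, detected on all wild-type and no sActRIIB-Fc array, held for 12 genes including Cntnap2, and all 12 fell, which the choice likewise nearly fixes. Some named genes were detected on part of a group: of the 4 wild-type arrays 3 detected Tgfb1, Fst, Dtnb, Utrn and Inhba, 2 detected Vsig4, Mt2 and Myh7, and 1 detected Fos, while of the 5 sActRIIB-Fc arrays 4 detected Utrn, 3 detected Gnmt, Ciart and Inhba, 2 detected Wfikkn2 and Tfeb, and 1 detected Dtnb.

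sActRIIB-Fc was compared with PBS directly, the test of what the drug itself changed in sedentary mdx muscle. No gene of 8945 passed (0%; limma, lowest adjusted p = 0.999), and 285 genes (3.19%) had an unadjusted p under 0.05, 149 of them higher (1.67%) and 136 lower (1.52%). The unadjusted count depended on the arrays fitted. It was 539 with only the sActRIIB-Fc and PBS arrays, and 190 to 395 in runs that left out 1 array, again with 0 genes past the adjusted limit. The difference was positive for 50.5% of all genes. A comparison without a call does not show equal levels, so the intervals matter. Over all genes the 95% interval of the difference had a median half-width of 0.273 log2 units and lay within 1 log2 unit of 0 for 8828 genes (98.7%). Of the 655 genes at least 2-fold from wild type it did so for 608 (92.8%), and for 295 it lay within 0.5. PBS mdx muscle had 1725 genes higher (19.3%) and 1651 lower (18.5%) than wild type, with 511 at least 2-fold higher (5.71%) and 139 at least 2-fold lower (1.55%). The wild-type arrays are shared with the sActRIIB-Fc comparison.

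**Figure D5:**
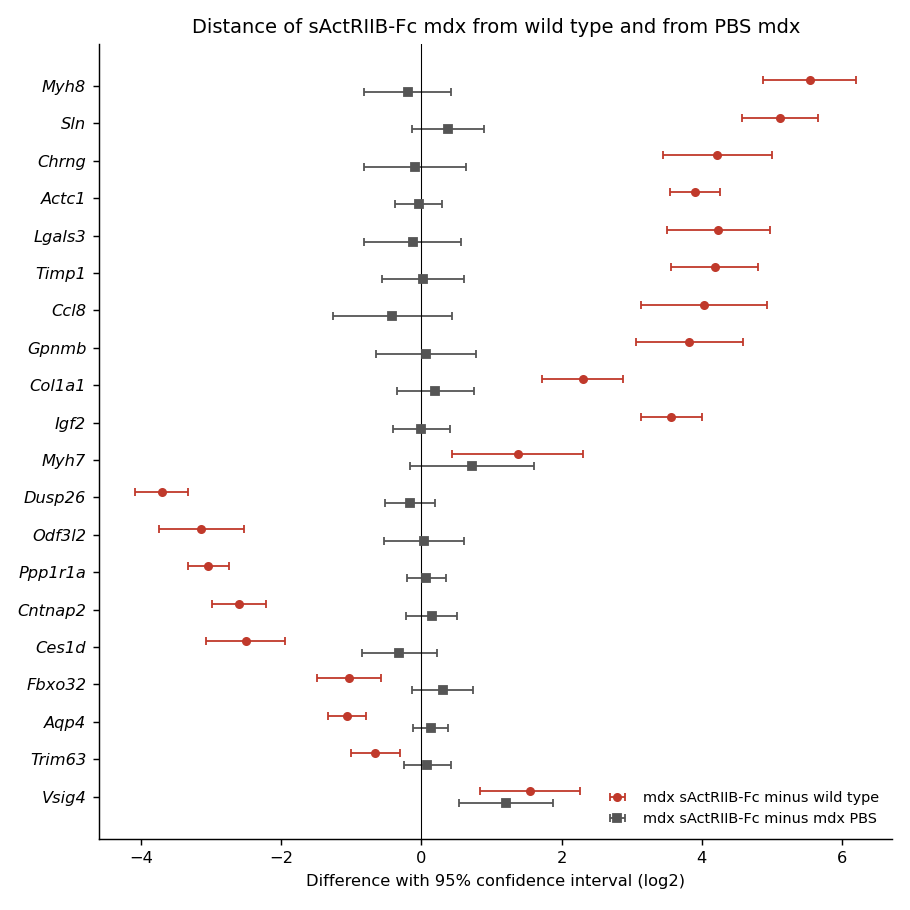
Difference between sActRIIB-Fc mdx and wild type, and between sActRIIB-Fc mdx and PBS mdx, for 20 genes (horizontal axis, log2; whiskers are 95% confidence intervals). All 20 intervals against wild type lie away from 0, while those against PBS include 0 for every gene but Vsig4, Myh8 for example being at 5.54 against wild type and -0.20 against PBS. The values of Chrng and Cntnap2 against wild type are fitted ones and not bounds.

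A set of genes chosen by the difference between running PBS mdx and wild type was described next. The sedentary mdx arrays entered that choice only through the shared normalisation, detection filter, probe choice and estimate of the spread. In running PBS mdx 456 genes were at least 2-fold higher and 106 at least 2-fold lower than in wild type. Over the 456 the median difference between sActRIIB-Fc and PBS mdx was -0.02 (interquartile range -0.13 to 0.08), and over the 106 it was -0.05 (-0.12 to 0.08). The mean of the higher set minus that of the lower set was 1.01, 1.31, 1.12, 1.25 and 1.06 on the sActRIIB-Fc arrays, 1.59, 0.97, 1.08, 1.20 and 1.01 on the PBS arrays, and -1.93, -2.00, -1.91 and -1.85 on the wild-type arrays, which helped to choose the genes. The treated and PBS arrays overlapped.

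The gene with the largest difference from PBS was Vsig4, a complement receptor of resident macrophages. It read 8.03, 6.15, 6.34, 7.23 and 6.24 with sActRIIB-Fc, 5.71, 5.86, 5.76, 5.46 and 5.17 with PBS, and 4.86, 5.66, 5.55 and 4.91 in wild type. Every treated array lay above every PBS and wild-type array. The difference from PBS was 1.21 ± 0.33 (interval 0.54 to 1.88, unadjusted p = 0.0011), did not pass over all genes (adjusted p = 0.999), and was 1.37 between the sActRIIB-Fc and PBS groups of running mice. The remaining genes with the lowest p against PBS were Glt28d2 (0.47), Drc3 (0.36), Mtmr9 (0.36), Trp53rkb (-0.39), Il4i1 (-0.51), Csf3 (-0.38) and Zap70 (-0.31), for which the running groups gave 0.16, -0.17, -0.12, -0.08, -0.26, -0.02 and 0.12 in the same order. Csf3 and Zap70 were detected on no array of the sActRIIB-Fc or wild-type groups. The most negative difference from PBS was that of Plac9a (-0.90).

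Among lists, the slow fibre genes were higher with sActRIIB-Fc than with PBS by a median of 0.38, with none past the test. The difference was positive in 10 of 11, against 50.5% of all genes. Other lists were as one-sided: it was positive in 6 of 6 mast cell genes, 0 of 8 of MHC class II and 0 of 9 of cholesterol synthesis. The slow fibre mean per array overlapped between the groups, at 10.78 to 11.50 with sActRIIB-Fc and 10.69 to 10.91 with PBS. Against wild type 6 slow fibre genes rose and 1 fell in PBS mdx (median 0.66), and their median between the running groups was 0.04. For Myh7 the difference from PBS was 0.72 with an interval of -0.17 to 1.60, and between the running groups -0.12. The 13 circadian clock genes had a median difference from PBS of 0.37, while the running groups differed by a median of -0.10. Their mean per array was 8.13 to 8.76 with sActRIIB-Fc and 8.06 to 8.52 with PBS, which overlap. Relative to wild type 2 of the 13 fell with sActRIIB-Fc and 6 with PBS, where 19.1% and 18.5% of all genes fell. The difference between these 2 counts was not tested. The clock gene Per1, named after its value was seen, was 1.05 above PBS, which did not pass, and at -0.04 against wild type. Ciart read 6.53, 5.06, 6.31, 7.03 and 5.28 with sActRIIB-Fc, 5.25, 5.99, 5.32, 5.16 and 5.82 with PBS, and 6.74, 8.00, 7.73 and 8.16 in wild type. The hour of collection is not in the labels and its part in these values was not tested. In no list did a member pass the test of sActRIIB-Fc against PBS.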

How the data were processed

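Gastrocnemius RNA from 24 mice was measured on Illumina bead arrays, 9 of them in the comparison with wild type. The deposited table holds unnormalised probe intensity and a detection p-value for each array, per the file headers, and the authors' second table holds log2 values, which match log2 of the quantile-normalised intensity to within 0.005. The authors' software is not given in the sources used here, and neither chip nor slide is recorded, so batch was not tested. The 25697 probes comprise 23978 with 1 gene symbol, 0 with several and 1719 with none, from GEO's platform annotation.

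From the deposited intensity, limma 3.58.1 in R 4.3.3 made normexp background-corrected values (offset 16; the mean and SD of the control beads were worked out from each array's detection p-value), quantile-normalised log2 signal, and 1 linear model with 5 group means, moderated by eBayes, with two-sided tests and Benjamini-Hochberg adjustment over all genes at 0.05. Probes detected (p under 0.05) on at least 4 arrays were kept (12623, of which 11919 have a symbol), and the brightest probe stood for each of 8945 genes, 2216 of which have more than 1. The script was checked on simulated data. Named genes are the 12 largest rises and 10 largest falls, up to 3 members of each list past the limit, 18 preset genes and the 8 lowest p against PBS; Myf6, Aurka, Timp3, Timp4, Per1 and Plac9a lie outside this rule and were named after their values were seen. Members and the 44 lists (808 genes, 603 tested) were chosen with earlier results of these data known, and no set test was run. Promoters come from RefSeq. Alternatives were background correction, scaling, the detection filter, probe summary, the authors' table, a hepatocyte covariate, the replicate block, the arrays fitted and each array left out; scaling over probes detected on all arrays was chosen after seeing the data.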

Additional observations from a re-analysis of the deposited data

Results flagged for a closer look

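Single arrays stood apart from the rest of their group in 9 of the 105 groups looked at over 35 genes, where chance gives about 1 in 20. In Lgals3 sActRIIB-Fc replicate 5 was at 12.37, against 13.04 to 13.3 on the others. Timp1 was at 10.21 on PBS replicate 4 (others 10.32 to 10.34), Gpnmb at 11.15 on PBS replicate 5 (11.87 to 12.13) and Kcne1l at 6.91 on PBS replicate 2 (7.94 to 8.29). Ces1d was at 7.97 on PBS replicate 5 (8.98 to 9.39). Gnmt, a liver gene, was high on sActRIIB-Fc replicate 1 (6.52, others 5.21 to 5.52) and on PBS replicate 4 (7.12, others 5 to 5.34), the arrays with the highest hepatocyte marker level of their groups. Col1a1 was high on sActRIIB-Fc replicate 4 (11.01, others 10.18 to 10.41) and Aqp4 was low on the same array (6.45, others 6.76 to 6.83).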

How the results depend on the processing

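None of the 135 named genes past the limit changed direction under any alternative run. Higher and lower counts were close, and lower exceeded higher with the replicate block, with the hepatocyte covariate, with the mean of probes (1740 higher, 1773 lower) and under scaling over detected probes. List medians near 0 that changed sign are given with their lists. Without background correction 283 genes were at least 2-fold higher and 70 at least 2-fold lower, and the authors' log2 table gave the same 283 and 70, against 510 and 145. Scaling to equal medians left 914 genes lower, with 93 at least 2-fold lower. Leaving out single arrays gave 1534 to 1703 genes higher, 1416 to 1638 lower, 492 to 531 at least 2-fold higher and 127 to 208 at least 2-fold lower, and 0 against PBS throughout. With the replicate number as a block 1891 were higher, 1933 lower and 0 differed from PBS. Deviations of same-numbered arrays correlated at 0.04 to 0.27 with wild type and -0.15 to 0.33 with PBS, negatively for replicates 1, 2 and 4 with PBS. The same-numbered array was the best match for sActRIIB-Fc replicates 3 and 4 with wild type, and 3 and 5 with PBS. Whether the numbers mark a pairing or a shared batch cannot be told from these values. Of the 135 named genes 99 passed under every setting. Apoc1, Apoc4, Gnmt and Gsta3 moved by over 1.5-fold without 1 wild-type array: their differences of -2.01, -2.46, -2.42 and -2.13 became -1.21, -1.46, -1.45 and -1.42 without replicate 2, and -2.68, -3.30, -3.21 and -2.80 without replicate 4. The cause of these changes was not tested. Genes detected on no array of a group have only a bound there.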

Other observations

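Early-response genes were higher in sActRIIB-Fc mdx than in wild type: of 14 tested members 8 rose and none fell (median 0.64, against -0.04 over all genes), with the transcription factors Fos (2.33 ± 0.40, adjusted p = 6.6e-05), Egr1 (1.99 ± 0.23, 5.1e-07) and Junb (1.20 ± 0.21, 6.3e-05; limma). Fos read 7.99, 8.49, 6.98, 7.46 and 7.95 with sActRIIB-Fc, 8.56, 6.92, 7.43, 8.24 and 6.62 with PBS, and 6.15, 5.28, 5.38 and 4.98 in wild type, so the mdx groups overlapped each other above wild type. Of 12 genes of the unfolded protein response 6 were higher and 2 lower (median 0.41, or 0.28 with undetected genes at their bound), the disulfide isomerase Pdia3 by 0.95 ± 0.17 upward and the stress factor Ddit3 downward, by -0.73 ± 0.16. Of 15 heat shock genes 4 rose and 2 fell (median 0.09, but -0.09 under scaling to equal medians of detected probes), near the 38.8% of all genes that passed. Of 13 endothelial genes (endothelium list median 0.14, but -0.02 under scaling to equal medians of detected probes) 1 fell, the vascular growth factor Vegfa (-0.53 ± 0.13, adjusted p = 0.0026), and of 9 genes of cholesterol synthesis 2 rose and 2 fell. The cholesterol count was again near 38.8%. Of 16 genes of excitation-contraction coupling 1 rose and 3 fell (median 0.08, and -0.19 under scaling to equal medians of detected probes), a smaller share than over all genes (38.8%). The gene that rose, Srl (0.47 ± 0.18, adjusted p = 0.040), had overlapping groups. Its call was lost under several settings, among them the hepatocyte covariate (0.091) and leaving out wild-type replicate 3 (0.154). The Schwann cell gene Mbp was at -1.28 ± 0.19 (adjusted p = 9.4e-06), with 1 of its probes moving the other way.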
